A study of Mus musculus with 6 samples.

Results

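Slits, netrins, semaphorins and ephrins are the 4 large families of guidance cues, and 54 genes for these ligands and their receptors were examined here in the embryonic mouse pancreas between 13.5 and 15.5 days post coitum (dpc). They were chosen by name from the 37224 genes of the deposited table, and all 54 were found there. The list holds 24 ligand and 30 receptor genes, with 3 ligands and 3 receptors of the Slit-Robo family, 2 and 6 of the netrin family, 11 and 11 of the semaphorin family, and 8 and 10 of the ephrin family. RNA was from wild-type (wt) pancreata of the C57/Bl6J strain, with 3 samples at 13.5 dpc and 3 at 15.5 dpc. The labels name no treatment or transgene for any of them. Each sample pooled the pancreata of up to 3 embryos and held every cell type of the dissected organ. The stages differ in age alone as far as the labels go, and replicates were called biological.

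Guidance cues were first described in the growth of axons, where a ligand from a neighbouring cell attracts or repels the tip of the axon. Slits signal through Robo receptors, netrins through Dcc, neogenin and the Unc5 receptors, and semaphorins through plexins, with neuropilins as coreceptors of the secreted class 3 ligands. Ephrins are bound to the cell surface and signal by contact with Eph receptor tyrosine kinases, and in this pairing the cell that carries the ephrin can also respond. In the developing pancreas the same families are known from innervation, vessel growth, the movement of epithelial and endocrine cells and contacts with the mesenchyme.

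Of the 54 genes, 51 had enough counts to be tested, and 19 of them differed between the stages at an adjusted p at or below 0.05 in edgeR's quasi-likelihood test. Of these, 16 were lower at 15.5 dpc and 3 were higher. The 3 higher genes, *Ntn1*, *Ntn4* and *Sema4a*, encode ligands. The lower genes were 8 ligands and 8 receptors, and no receptor was called higher. The called share of the guidance genes was 37.3%, beside 22.3% of all 15578 genes tested. By direction, 31.4% of the guidance genes were called lower beside 10.7% of all genes, and 5.88% were called higher beside 11.6%. The median log2 fold change of 15.5 over 13.5 dpc was -0.41 over the guidance genes and -0.01 over all genes, and 40 of the 51 were negative. The guidance genes are long, with a median exon length of 6470 bases beside 3470.5 over all genes tested, and across all genes log2 fold change and exon length were negatively correlated (Spearman rho -0.36, genes not being independent replicates). With that trend removed, their median was -0.21, with 6 called higher and 22 lower, beside 18.1% higher and 14.7% lower of all genes in that setting. The 3 genes that this setting added to the higher ones were *Sema3c* and the receptors *Plxna2* and *Plxnd1*, so in that setting the higher genes were not all ligands. The lowest and highest values were -1.82 for *Epha4* and 0.99 for *Ntn1*.

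Without regard to the test, the 3 samples of each stage did not overlap for 30 guidance genes. In 26 of these, every 15.5 dpc sample lay below every 13.5 dpc sample, which is 51% of the 51 beside 23.6% of all genes. The opposite held for 4 genes, *Ntn1*, *Ntn4*, *Sema4a* and *Sema3f*, where the share over all genes was 22.8%. Among ligands, 11 of 24 were called (45.8%, beside 22.3% of all genes) and the median log2 fold change was -0.33. Among receptors, 8 of 27 were called (29.6%, beside the same 22.3%) and the median was -0.43. Whether the called shares of ligands and receptors differ was not tested.

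**Figure D1:**
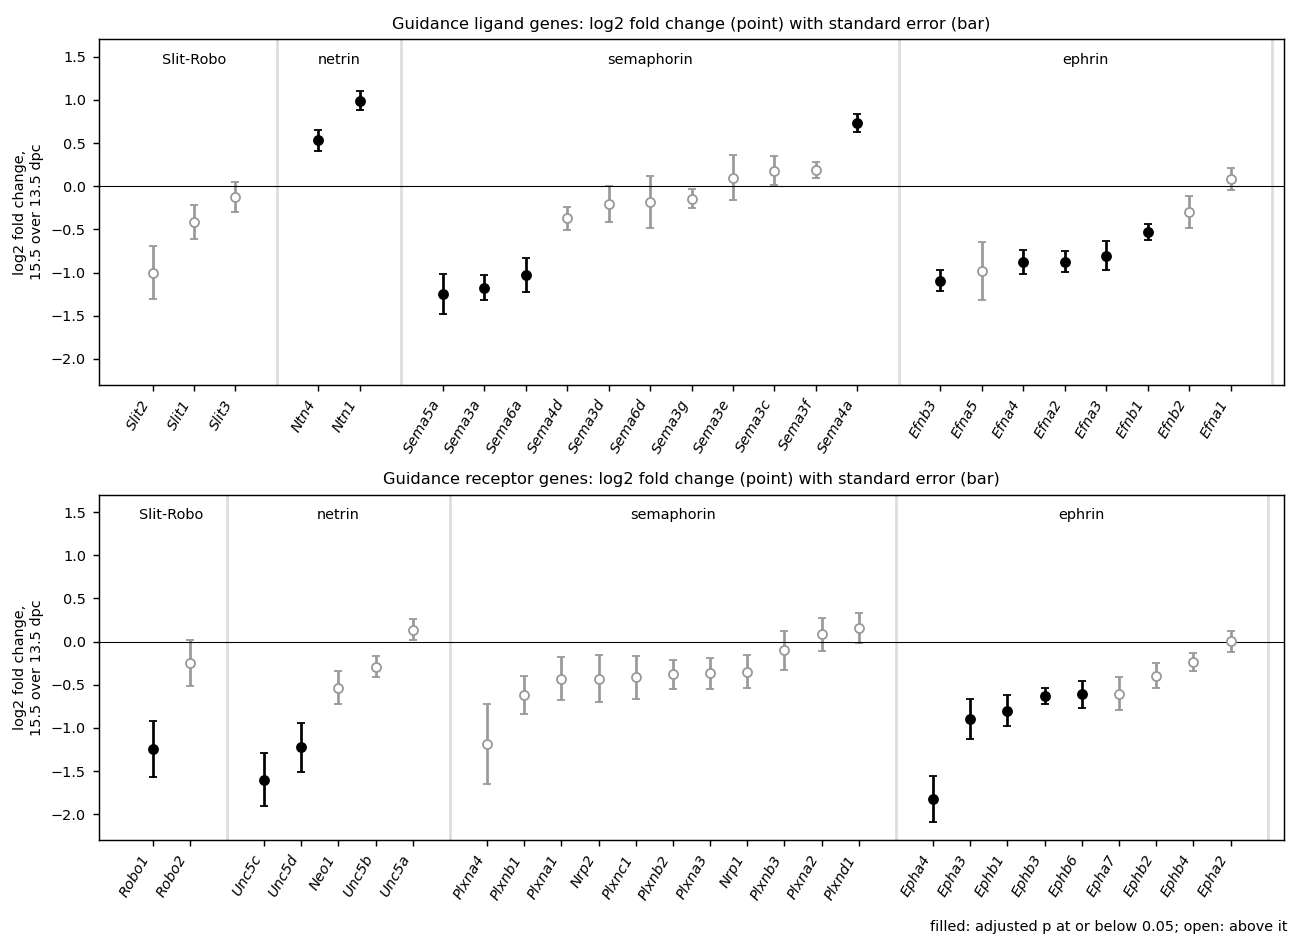
Log2 fold change of 15.5 over 13.5 dpc (vertical axis) of the 51 tested guidance genes, ligands above and receptors below, grouped by family. Points are edgeR estimates, bars their standard errors, and filled points have an adjusted p at or below 0.05. The 3 filled points above 0 are ligands, and the 11 plexins and neuropilins are open.

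Library totals ran from 12895732 to 16389237 for the earlier stage and from 10546028 to 12491550 for the later. The 7 acinar marker genes, among them *Cpa1* and *Ptf1a*, were all higher at 15.5 dpc, and their summed normalised counts were 92629.5 to 111432 at 13.5 dpc and 597112, 832621 and 1280420 in 15.5 dpc replicates 2, 3 and 1. The 9 mesenchyme markers summed to 109934 to 126133 and then to 78792, 105779 and 123371 in replicates 1, 3 and 2, with 4 of 9 called lower and 1 higher. The 7 neuron markers summed to 2273 to 2481 and then to 1397 to 1521, with 4 called lower and 1 higher. The 8 endothelial markers summed to 6446 to 6914 and then to 6547 to 7475, with 1 called higher. The 7 epithelial markers summed to 25139 to 26288 and then to 32670 to 42711, with 4 called higher. The 9 endocrine markers summed to 29663 to 31941 and then to 29712 to 47730.1, with 2 called higher and 2 lower. The 6 erythroid markers summed to 13029 to 14661 and then to 15612, 25352 and 43916 in replicates 2, 3 and 1, with 2 called higher. The 5 mesothelial markers summed to 2143 to 2180 and then to 1623 to 1898, with *Msln* called higher and *Wt1* lower. The 6 leukocyte markers summed to 1860 to 1909 and then to 1482 to 1727, with 1 called lower. The 6 smooth muscle and pericyte markers summed to 2133 to 2312 and then to 2476 to 2654, with *Acta2* and *Tagln* called higher and *Rgs5* lower. The sums of the 7 glia and neural crest markers overlapped, at 1561 to 1874 and 1367 to 1964, with *S100b* called higher and *Sox10* lower. No marker of these 11 lists was at 0 in all samples. Beside these counts, 11.6% of all genes were called higher and 10.7% lower. In such bulk samples, fewer cells of a type and less RNA per cell cannot be told apart, and the part of cell composition in the values below was not tested.

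The 15.5 dpc samples were unlike each other for the guidance genes. Against the 13.5 dpc mean, the median log2 difference of the 51 genes (normalised counts + 1) was -0.74 in replicate 1, -0.12 in replicate 2 and -0.46 in replicate 3. Replicate 1, which had the highest acinar and lowest mesenchyme sum, was the lowest of the 15.5 dpc samples in 12 of the 16 genes called lower. Replicate 2, with the lowest acinar and highest mesenchyme sum, was the highest in 11 of them. The number of genes called changed when a sample was left out, and each such fit also had fewer samples from which to estimate the spread. Without 15.5 dpc replicate 2, 35 guidance genes were lower and 3 higher, while 7620 of all genes were called (23.3% lower and 24.7% higher). Without 13.5 dpc replicate 1 or 3 or 15.5 dpc replicate 3, 8, 6 and 8 genes were lower, respectively, and 1235, 1402 and 1438 of all genes were called. Without 13.5 dpc replicate 2, 11 guidance genes were lower, 4 receptors in all were called, and the count over all genes was 1331. None of the 19 called guidance genes changed direction in any of these.

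**Figure D2:**
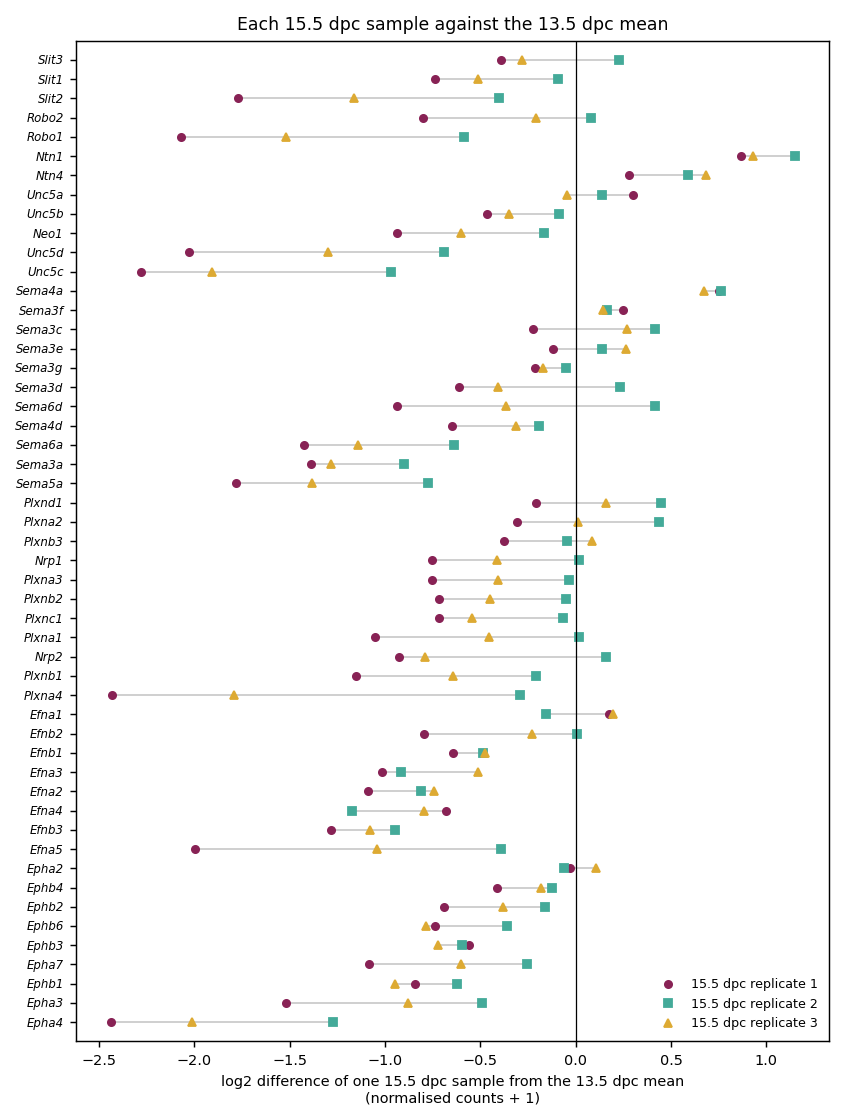
Log2 difference of each 15.5 dpc sample from the mean of the 13.5 dpc samples, in normalised counts + 1 (horizontal axis), for the 51 tested guidance genes (vertical axis, by family and role). Symbols stand for the 3 replicates. Replicate 1 has a median of -0.74 and replicate 2 a median of -0.12.

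Leaving out single samples ended the call of 11 of the 19 genes, while in those fits their log2 fold changes stayed within 0.13 of the values from all samples. *Robo1*, *Unc5d* and *Epha3* lost it without each of the 13.5 dpc samples and without 15.5 dpc replicate 3, with edgeR's adjusted p up to 0.125, 0.0911 and 0.11. The same samples ended it for *Ntn4* and *Ephb6*, with adjusted p up to 0.107 and 0.122. *Sema5a* and *Ephb1* lost it without 13.5 dpc replicate 1 or 3 or 15.5 dpc replicate 3, with adjusted p up to 0.0578 and 0.0879. For *Unc5c* and *Sema6a* the samples were 13.5 dpc replicate 3 and 15.5 dpc replicate 3, with adjusted p up to 0.059 and 0.0628. *Efna3* lost it without each of the 13.5 dpc samples (up to 0.0726) and *Efnb1* without replicate 1 or 3 of that stage (up to 0.0596). The calls of *Ntn1*, *Sema3a*, *Sema4a*, *Efna2*, *Efna4*, *Efnb3*, *Epha4* and *Ephb3* held whichever sample was left out.

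Promoter windows of 300 bases, from 250 before to 50 after a gene start, were read for the members with an entry in the RefSeq table (GRCm38.p6), which were 45 of 54. For each, the start nearest to the 5' end of the counted gene was taken. Some lay away from that end, by 368 bases for *Ntn4*, 2831 for *Plxnb2* and 37064 for *Sema4d*. No entry was found for *Ntn1*, *Unc5d*, *Sema3f*, *Dcc*, *Slit1*, *Plxna1*, *Plxna4*, *Sema6a* and *Efnb3*. Shown are the 2 higher genes with an entry and the 3 lower genes of largest change with one. Capitals mark matches on either strand of the TATA box, spelled TATAAA, of the GC box, spelled GGGCGG, of the motif of TEAD factors, spelled CATTCC, of the motif of RBPJ, spelled TGGGAA, and of an E-box, spelled CAGCTG. The windows are chr10:93640799-93641098 (+), chr3:88461133-88461432 (-), chr1:77515039-77515338 (-), chr3:141465314-141465613 (+) and chr15:32244563-32244862 (+), in that order.
Ntn4: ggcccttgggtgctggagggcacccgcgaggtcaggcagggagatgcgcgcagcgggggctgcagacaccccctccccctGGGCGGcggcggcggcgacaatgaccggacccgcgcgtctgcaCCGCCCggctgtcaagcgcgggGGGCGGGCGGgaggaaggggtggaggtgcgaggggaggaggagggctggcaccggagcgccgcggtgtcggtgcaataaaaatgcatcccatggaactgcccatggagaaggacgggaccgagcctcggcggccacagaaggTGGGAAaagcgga
Sema4a: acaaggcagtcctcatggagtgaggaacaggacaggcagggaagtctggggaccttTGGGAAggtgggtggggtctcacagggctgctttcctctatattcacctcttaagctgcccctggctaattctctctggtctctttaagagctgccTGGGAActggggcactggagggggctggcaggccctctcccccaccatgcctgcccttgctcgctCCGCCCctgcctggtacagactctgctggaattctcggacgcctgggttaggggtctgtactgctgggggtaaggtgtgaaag
Epha4: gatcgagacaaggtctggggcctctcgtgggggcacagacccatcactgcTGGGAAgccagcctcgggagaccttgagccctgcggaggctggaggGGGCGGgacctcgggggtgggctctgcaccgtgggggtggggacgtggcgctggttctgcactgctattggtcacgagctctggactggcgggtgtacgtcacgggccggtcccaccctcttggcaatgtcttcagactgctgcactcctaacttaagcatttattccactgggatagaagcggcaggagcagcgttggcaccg
Unc5c: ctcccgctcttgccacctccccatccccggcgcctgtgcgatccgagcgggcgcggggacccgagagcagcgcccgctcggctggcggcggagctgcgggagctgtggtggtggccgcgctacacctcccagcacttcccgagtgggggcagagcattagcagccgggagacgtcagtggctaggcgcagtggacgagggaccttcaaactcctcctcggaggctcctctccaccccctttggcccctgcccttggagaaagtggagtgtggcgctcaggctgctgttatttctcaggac
Sema5a: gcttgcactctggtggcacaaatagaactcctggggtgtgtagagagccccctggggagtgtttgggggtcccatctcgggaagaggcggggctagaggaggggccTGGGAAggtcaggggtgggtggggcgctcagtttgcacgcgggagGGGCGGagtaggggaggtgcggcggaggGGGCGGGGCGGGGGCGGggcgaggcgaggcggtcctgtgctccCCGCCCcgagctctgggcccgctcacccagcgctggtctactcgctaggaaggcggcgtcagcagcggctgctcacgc

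In these windows *Ntn4* held 4 GC boxes and *Sema5a* 5, *Sema4a* and *Epha4* held 1 each, and *Unc5c* held none of the motifs. The RBPJ motif was in both higher genes with a window, in 4 of the 13 lower ones and in 5 of the 28 not called (17.9%). A GC box was in both higher genes, in 6 of the 13 lower (46.2%) and in 23 of the 28 not called (82.1%). Over all 45, a GC box was in 73.3% of windows beside 35.7% of all 32851 windows, the TATA box in 4.44% beside 13.6%, the TEAD motif in 11.1% beside 14.7%, the RBPJ motif in 24.4% beside 25.6% and the E-box in 11.1% beside 16.3%. The median GC content was 64.67% beside 52.67%, and the median number of CG pairs 22 beside 7. The set of all windows was not limited to genes tested here or to starts chosen as for the guidance genes. Whether these differences are particular to guidance genes was therefore not tested. Letters that match a motif describe the window and do not show binding.

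Both netrin ligand genes were called higher at 15.5 dpc, a call made for 11.6% of all genes. *Ntn1* (ENSMUSG00000020902, chr11:68209364-68400823 of mm10), the secreted netrin-1 that attracts or repels axons according to the receptor, was at 785, 812 and 899 normalised counts in the earlier samples and at 1519.5, 1849 and 1587 in the later ones. All 15.5 dpc samples were well above those of the earlier stage. The log2 fold change was 0.99 (SE 0.11, adjusted p = 0.0016, edgeR), which is 1.99-fold. Its mean level per length, which divides the scaled counts by kb of exon so that genes can be compared, went from 10.5 to 20.8, and its rank among the 51 tested guidance genes from 19 to 7. *Ntn4*, the laminin-like netrin-4 of basement membranes, had 297, 304 and 314 normalised counts and then 371, 459 and 491, without overlap. The log2 fold change was 0.53 (SE 0.13, adjusted p = 0.024, edgeR). This call was lost when counts were scaled by library size only (adjusted p = 0.165).

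None of the netrin receptor genes was called higher, beside 11.6% of all genes. Of the 5 tested, 2 were lower (40%, beside 10.7% of all genes). *Unc5c*, a receptor of repulsive netrin responses, was at 848, 833 and 989 normalised counts in the earlier stage and at 183, 455 and 237 in the later. Even the highest of the later samples was well below the earlier stage. The log2 fold change was -1.60 (SE 0.31, adjusted p = 0.012, edgeR). *Unc5d*, of the same subfamily, had 213, 208 and 214 and then 51.2, 131 and 85.6 normalised counts, with a log2 fold change of -1.22 (SE 0.28, adjusted p = 0.022, edgeR). The other Unc5 genes were not called. *Unc5b*, which is known from vessels, had a log2 fold change of -0.29 (SE 0.12, adjusted p = 0.117) and *Unc5a* one of 0.14 (SE 0.12, adjusted p = 0.419), both from edgeR. Neogenin, encoded by *Neo1* and the netrin receptor with the highest level per length, had 1694, 1725 and 1909 and then 926, 1585 and 1169 normalised counts. Its samples did not overlap, although the log2 fold change of -0.53 (SE 0.19) missed the threshold (adjusted p = 0.079, edgeR). *Dcc*, the receptor of attractive responses, reached only 1, 1 and 3 reads in the earlier and 1, 2 and 3 in the later samples, at or under a floor of 3 counts, and was not tested.

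The summed level per length of the netrin ligands was 16.2, 16.7 and 18.0 at 13.5 dpc and 27.0, 33.0 and 30.4 at 15.5 dpc. The netrin receptors summed to 39.4, 38.8 and 42.8 and then to 23.8, 34.7 and 26.4. The ratio of the ligand to the receptor sum was therefore 0.411 to 0.43 in the 13.5 dpc samples and 0.952 to 1.15 in the 15.5 dpc samples.

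In the Slit-Robo family, 1 of 5 tested genes was called (20.0%, beside 22.3% of all genes). *Robo1*, the highest per length of the 3 Robo genes among the 54, had 447, 415 and 474 normalised counts and then 105, 297 and 155, a log2 fold change of -1.25 (SE 0.33, adjusted p = 0.033, edgeR). *Robo2* had a log2 fold change of -0.25 (SE 0.27, adjusted p = 0.515, edgeR), and its samples overlapped. *Robo3* had 2, 1 and 2 counts and then 3, 3 and 2, at or under the floor, and was not tested. Among the secreted ligands, *Slit2* had 1927, 1771 and 1979 normalised counts and then 554, 1431 and 846. Its samples did not overlap, and the log2 fold change of -1.0 (SE 0.30) lay just outside the threshold (adjusted p = 0.0525, edgeR). It passed in 8 of 15 alternative settings. *Slit3*, the Slit with the highest level per length, had 949, 955 and 1131 and then 771, 1184 and 832, and was not distinguishable (log2 fold change -0.12, SE 0.17, adjusted p = 0.627, edgeR). *Slit1* was also not called (log2 fold change -0.42, SE 0.19, adjusted p = 0.154, edgeR). *Robo1* to *Robo3* summed to 5.06 per length at 13.5 dpc and 2.30 at 15.5 dpc, and the samples did not overlap. This sum leaves out *Robo4*, known from endothelium and not among the 54 genes, which was higher per length, at 9.89 and 10.9, and was not called (log2 fold change 0.14, SE 0.12, adjusted p = 0.388, edgeR). With *Robo4* added, a sum chosen after seeing the data, the receptors came to 15.0 and 13.2. The Slits summed to 24.9 and 18.4, and here 15.5 dpc replicate 2 overlapped the earlier samples. The ratio of the Slit sum to that of *Robo1* to *Robo3* was 4.66 to 5.10 and then 6.93 to 10.2, without overlap. Against the sum with *Robo4* it was 1.65 to 1.67 and then 1.16 to 1.82, with overlap, so its mean was lower at 15.5 dpc where *Robo4* was counted and higher where it was not.

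Semaphorins had the largest membership, and 4 of 22 genes were called (18.2%, beside 22.3% of all genes), all of them ligands. The listed ligand with the highest level per length was the secreted *Sema3f*, with 1849, 1871 and 2054 normalised counts and then 2289, 2159.7 and 2124. The stages did not overlap, yet the log2 fold change of 0.19 (SE 0.09) did not pass (adjusted p = 0.162, edgeR) and was -0.0279 when counts were scaled by library size only. *Sema3f* was the highest of all 51 tested genes per length at 15.5 dpc, at 51.1, and the third at 13.5 dpc, at 44.9. *Sema4a*, a transmembrane semaphorin known from immune cells, had 224, 250.4 and 222 and then 392, 394 and 370.2 normalised counts. The 15.5 dpc samples lay close together and above all earlier samples, with a log2 fold change of 0.73 (SE 0.10, adjusted p = 0.0036, edgeR).

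The 3 semaphorin ligands called lower were spread over the classes. *Sema3a*, the secreted ligand that acts through neuropilin 1, had 362, 355 and 364 normalised counts and then 137, 192 and 147. The log2 fold change was -1.17 (SE 0.14, adjusted p = 0.0022, edgeR). *Sema5a*, a transmembrane semaphorin with thrombospondin repeats, had 1997, 1769.6 and 2024 and then 560.5, 1129 and 740.4 normalised counts, with a log2 fold change of -1.25 (SE 0.24, adjusted p = 0.011, edgeR). *Sema6a*, a transmembrane ligand of A-class plexins, had 825, 827 and 993 and then 328, 567 and 399, with a log2 fold change of -1.03 (SE 0.20, adjusted p = 0.012, edgeR). Of the secreted class 3 genes, only *Sema3a* of the 6 listed was called, and the summed level per length of the class was 59.8 to 65.9 at 13.5 dpc and 64.1 to 67.7 at 15.5 dpc. The 5 listed transmembrane genes of classes 4 to 6 summed to 33.6 to 37.7 and then to 18.8 to 29.2, without overlap. The remaining ligands, *Sema3c*, *Sema3d*, *Sema3e*, *Sema3g*, *Sema4d* and *Sema6d*, had log2 fold changes from -0.37 to 0.18.

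None of the 9 plexins and 2 neuropilins was called, beside 22.3% of all genes, although these receptors had the highest summed level per length of any group. Their log2 fold changes ran from -1.19 for *Plxna4* to 0.16 for *Plxnd1*, with a median of -0.38. *Plxnb2*, a receptor of class 4 semaphorins, was the highest of all guidance genes at 13.5 dpc, with a level per length of 61.0, and was at 46.9 at 15.5 dpc. Its normalised counts were 5288, 5253 and 5926 and then 3341, 5292 and 4027, so that replicate 2 fell among the earlier samples (log2 fold change -0.38, SE 0.17, adjusted p = 0.139, edgeR). *Plxna4* had 204, 205 and 253 and then 40.1, 180.0 and 63.0 normalised counts. Its samples did not overlap and its spread was wide (log2 fold change -1.19, SE 0.46, adjusted p = 0.102, edgeR). *Plxnb1* was the other receptor whose stages did not overlap (log2 fold change -0.61, SE 0.22, adjusted p = 0.084, edgeR). Without 15.5 dpc replicate 2, *Plxna1*, *Plxna3*, *Plxna4*, *Plxnb1*, *Plxnb2*, *Nrp1* and *Nrp2* passed the threshold in the lower direction. With the length trend removed, *Plxna2* (log2 fold change 0.438, adjusted p = 0.00251, edgeR) and *Plxnd1* (0.352, adjusted p = 0.0138, edgeR) passed it in the higher direction.

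**Figure D3:**
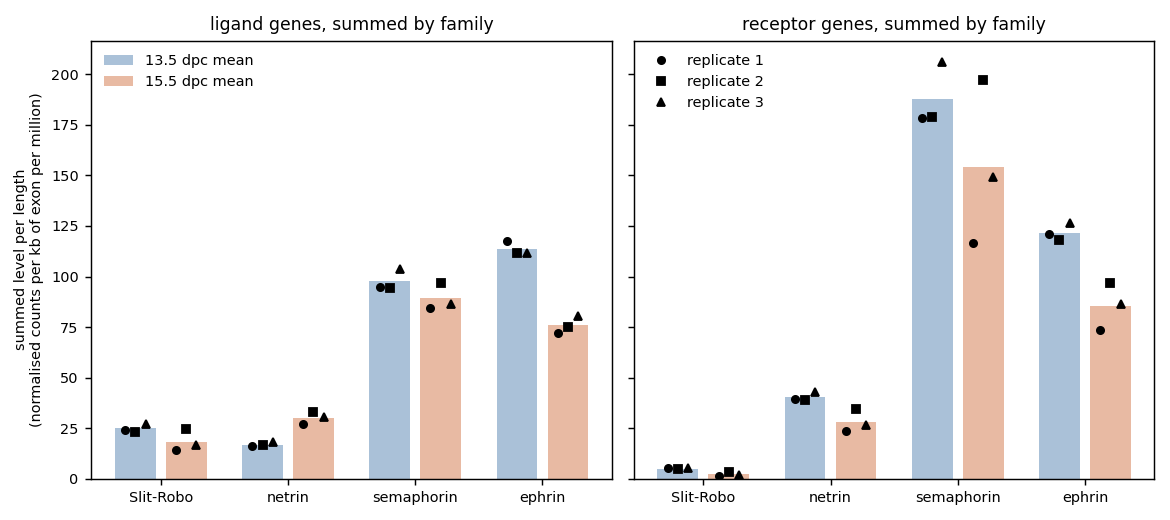
Summed level per length (counts per kb of exon, scaled to effective library size, vertical axis) of the ligand genes (left) and receptor genes (right) of each family. Bars are stage means and symbols the 3 replicates. The netrin ligand sum is 16.2 to 18.0 at 13.5 dpc and 27.0 to 33.0 at 15.5 dpc, while the ephrin ligand and receptor sums lie lower in every 15.5 dpc sample.

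The ephrin family held most of the called genes, with 10 of 17 lower (58.8%, beside 10.7% of all genes) and none higher. On the ligand side, 5 of 8 were lower. *Efnb1*, the ephrin with the highest level per length, had 1447, 1308 and 1416 normalised counts and then 891, 992 and 1001, a log2 fold change of -0.53 (SE 0.09, adjusted p = 0.0085, edgeR). *Efnb3* moved most, with 621, 595 and 534 and then 239, 302 and 276 normalised counts (log2 fold change -1.10, SE 0.12, adjusted p = 0.0015, edgeR). Both encode transmembrane ephrins of the B class. *Efnb2*, the third B-class ligand and a marker of arteries, was not called (log2 fold change -0.30, SE 0.19, adjusted p = 0.275, edgeR).

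The A-class ephrins are held in the membrane by a lipid anchor. *Efna4* had 467, 460.4 and 460.4 normalised counts and then 288, 205 and 266 (log2 fold change -0.88, SE 0.14, adjusted p = 0.0056, edgeR). For *Efna2* the values were 385, 352 and 353 and then 170.2, 207 and 217 (log2 fold change -0.87, SE 0.12, adjusted p = 0.0037, edgeR). The less abundant *Efna3* had 118, 124 and 113 and then 58.1, 62.4 and 83.1 (log2 fold change -0.81, SE 0.17, adjusted p = 0.015, edgeR). In these 3 genes the stages were well apart. Exons of *Efna3* overlap a gene on the opposite strand over 14.1% of their bases. *Efna1* was not called, with a log2 fold change of 0.08 (SE 0.13, adjusted p = 0.665, edgeR). *Efna5* had a log2 fold change of -0.98 (SE 0.33, adjusted p = 0.073, edgeR), and its count is uncertain because 59.9% of its exon bases overlap another gene on the same strand.

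Among the Eph receptors, 5 of 9 tested were lower. *Epha4* (ENSMUSG00000026235, chr1:77367185-77515088 of mm10), which binds ephrins of both classes, had 1146, 1040.0 and 1113 normalised counts and then 202, 454 and 272. Its promoter window held 1 GC box and 1 RBPJ motif. The log2 fold change of -1.82 (SE 0.27, adjusted p = 0.0042, edgeR), or 3.53-fold lower, was the largest of all guidance genes, and the rank per length went from 15 to 33. *Epha3* had 1006, 1085 and 1111 and then 372, 759 and 580.5 normalised counts (log2 fold change -0.90, SE 0.23, adjusted p = 0.031, edgeR). *Ephb3* was the most even of the receptors, with 1036, 1118 and 1089 and then 732, 714 and 655 (log2 fold change -0.63, SE 0.09, adjusted p = 0.0041, edgeR). *Ephb1* had 147, 104 and 124 and then 69.2, 80.8 and 64.2 normalised counts (log2 fold change -0.80, SE 0.18, adjusted p = 0.02, edgeR). *Ephb6*, whose kinase domain is inactive, had 248, 219 and 269 and then 147, 191 and 142 (log2 fold change -0.61, SE 0.16, adjusted p = 0.03, edgeR).

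The receptor of this family with the highest level per length was *Ephb4*, known from veins, with 3269, 3157 and 3369.5 normalised counts and then 2454, 2997 and 2881. It lay lower in every 15.5 dpc sample but missed the threshold (log2 fold change -0.23, SE 0.10, adjusted p = 0.138, edgeR). *Epha7* lay just outside it (log2 fold change -0.60, SE 0.19, adjusted p = 0.061, edgeR), *Ephb2* had a log2 fold change of -0.39 (SE 0.15, adjusted p = 0.092, edgeR), and *Epha2* one of 0.01 (SE 0.12, adjusted p = 0.98, edgeR). *Epha5* was not tested, with 4, 7 and 30 counts and then 5, 5 and 4. In sum per length, the ephrin ligands went from 111 to 117 at 13.5 dpc to 72.3 to 80.4 at 15.5 dpc and the receptors from 118 to 126 to 73.8 to 96.6. Their ratio was 0.882 to 0.971 at 13.5 dpc and 0.775 to 0.98 at 15.5 dpc, so it overlapped between the stages. The semaphorin ratio, over the listed genes, also overlapped, at 0.502 to 0.532 and then 0.492 to 0.724.

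**Figure D4:**
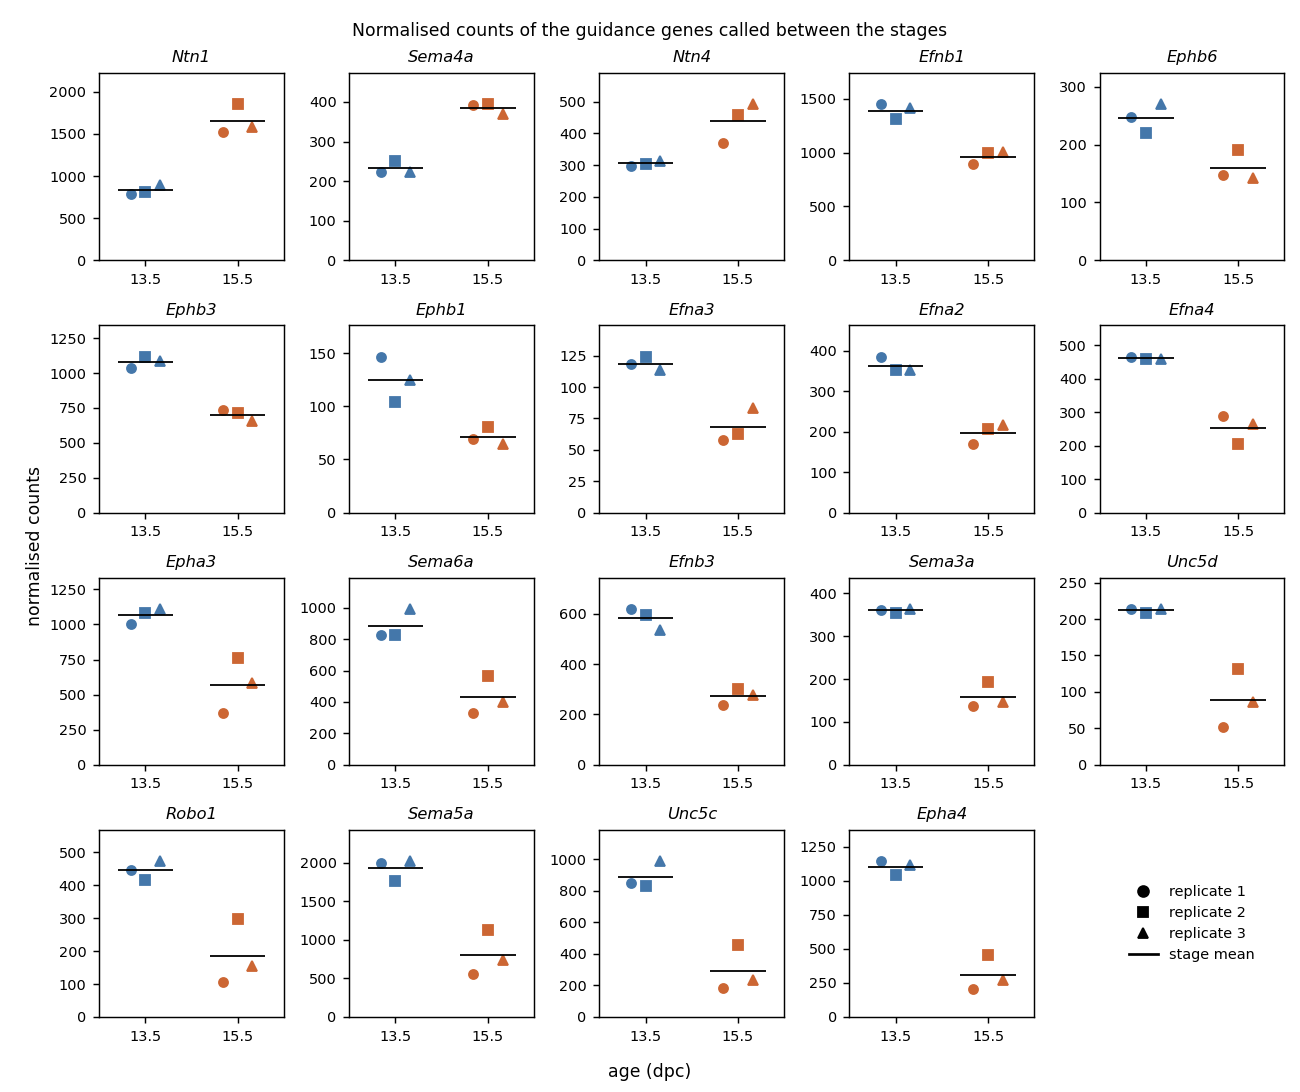
Normalised counts (vertical axis, from 0) of the 19 called guidance genes at 13.5 and 15.5 dpc. Symbols are replicates and horizontal lines stage means. In all 19 panels the stages do not overlap, and replicate 2 of 15.5 dpc is the highest of its stage in 11 of the 16 genes that were lower.

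Other genes of these pathways, not in the list of 54, were read in the same fit. A first set of 24 held further family members and genes related to them. The related ones were *Rgma*, *Rgmb*, *Draxin*, *Flrt2*, *Flrt3*, *Dscam* and *Dscaml1*. Of the 24, 19 were tested, with 1 higher and 5 lower. These were 5.26% and 26.3% of those tested, beside 11.6% and 10.7% of all genes. *Sema7a*, a lipid-anchored semaphorin, was higher (log2 fold change 1.07, SE 0.11, adjusted p = 0.0012, edgeR). *Draxin*, a secreted netrin-binding protein (-1.30), *Sema4f* (-1.07) and *Flrt3* (-0.97) had the largest negative log2 fold changes among the called genes. Of 31 cytoplasmic effectors, 3 were higher and 9 lower (9.68% and 29.0%, beside the same 11.6% and 10.7%). The higher ones were *Farp2* (0.73), *Pick1* (0.69) and *Ngef* (0.49), and among the lower ones were *Grip1* (-1.21), *Dpysl4* (-1.08) and *Srgap1* (-0.75), all as log2 fold changes. The effectors' median log2 fold change was -0.33.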

How the data were processed

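RNA of 6 samples (2 stages, 3 samples each) was isolated with poly(A) enrichment and turned into strand-specific libraries. The authors aligned reads to mm10 with GSNAP and used featureCounts 1.4.6 to count reads with a unique alignment per Ensembl gene. The deposited values are raw counts, without normalisation. Whether counting used the strand is not given in the sources used here. Symbols were matched to 35449 of 37224 identifiers.

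Counts were analysed with edgeR 4.0.16 in R 4.3.3 (filterByExpr, TMM factors, quasi-likelihood test, all 6 samples, no covariates, Benjamini-Hochberg adjustment over 15578 genes). SE is the absolute log2 fold change over the square root of F. Normalised counts refer to the geometric mean effective library size, and levels per length divide by exon kb. A gene at or under 3 counts was given no fold change. DESeq2 1.42.0 and other settings were alternatives. On simulated data, 77 of 90 genes with a log2 change of 1 and all 110 with a change of 2 were recovered, with 8 false calls among 15434 genes. The simulation drew every gene independently and changed only genes with ample counts. It held no shift shared by many genes of a sample, so these rates need not apply to the real samples. The p-values measure the spread between these pools. Members, lists and the rule for named genes (all genes called, up to 26, plus the highest ligand and receptor of each family) were chosen with earlier results of these data known.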

Additional observations from a re-analysis of the deposited data

How the results depend on the processing

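Of the 19 called guidance genes, 8 kept their call and direction in all 15 alternative fits (*Ntn1*, *Sema3a*, *Sema4a*, *Efna2*, *Efna4*, *Efnb3*, *Epha4* and *Ephb3*), and 11 lost the call in at least one, mostly when a sample was left out. None reversed. With the replicate number as a block, 3 guidance genes were higher and 16 lower, and 2676 of all genes were called (9.15% higher, 8.02% lower). In that setting *Ephb6* lost its call and *Slit2* gained one. Deviations of same-numbered samples correlated at 0.22, -0.22 and 0.04 for numbers 1, 2 and 3, so no common pairing by number was seen. With 3 samples per stage these values cannot exclude one.

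Leaving out each sample gave 1235 to 7620 genes called, 2 to 4 guidance genes higher, 6 to 35 lower, 6 to 19 ligands and 2 to 19 receptors called. Removing the trend with exon length gave 6 guidance genes higher, 22 lower and 14 receptors called, with 5104 of all genes called (18.1% higher, 14.7% lower), and the study's own thresholds called 1454 of all genes, 2 guidance genes higher and 15 lower, without *Ephb3*, *Ephb6*, *Efnb1* and *Ntn4* and with *Slit2* and *Efna5* added. DESeq2, run without the low-count filter, called 3 higher and 22 lower, and 4118 of 23666 genes (9.63% higher, 7.77% lower). These shares cannot be set beside those of the main fit, which are over 15578 genes. Scaling by library size alone shifted the median of all genes to -0.22. 

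Direction changed in 12 genes that were not called. With library size only, log2 fold changes were -0.0797 for *Unc5a*, -0.015 for *Sema3c*, -0.108 for *Sema3e*, -0.0279 for *Sema3f*, -0.112 for *Plxna2*, -0.0392 for *Plxnd1*, -0.139 for *Efna1* and -0.206 for *Epha2*. With the length trend removed they were 0.0316 for *Slit3*, 0.0994 for *Robo2*, 0.0637 for *Sema6d*, 0.0668 for *Plxnb3* and -0.0729 for *Efna1*. *Epha2* was -0.0258 with upper-quartile factors, -0.0187 without a low-count filter and -0.00792 with 10 counts in every sample. With each sample left out, values ran from -0.0212 to 0.302 for *Sema3e*, -0.607 to 0.0861 for *Sema6d*, -0.125 to 0.244 for *Plxna2*, -0.2 to 0.0112 for *Plxnb3* and -0.0651 to 0.0618 for *Epha2*. The cause was not tested.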
